A study of Mus musculus with 27 samples.

Results

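Cardiomyocyte (CM) cultures of the Zfp512b knockout clone KO8 were compared with wild-type (WT) cultures, with 2 libraries in each group, and the genes described are those whose base mean in the deposited table of this comparison was at least 50. The base mean is the authors' mean of the normalized counts over the 4 libraries. This rule held for 12193 of the 25209 genes in the table. For 7038 of them (57.7%) the reads of every library could be worked out from the base means, and these genes were tested. The other 5155, nearly all with a base mean of 1000 or more, have pooled means alone. Among them, 198 were under 1000 in this table and were left out because they reached 1000 in the table of KO4, a second clone.

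The cells are mouse embryonic stem cells of the line V6.5. KO8 and KO4, a second clone used here only as a comparison, are each 1 clone in which transcriptional terminators, with mCherry or a puromycin marker before them, were placed behind the third exon of Zfp512b, and the WT cells were not taken through editing and selection. Every CM culture was primed for 2 days, kept for 4 days as hanging drops of 1000 cells with vitamin C and plated for 1.5 days, so that all groups share the medium and the age. The series holds 27 libraries in all, and the 2 WT libraries are the same in the comparisons of both clones. The libraries of a group are called a and b here, because the base means do not tell which is replicate 1. Nothing in the labels says whether a pair comes from separate cultures, so the p-values measure the spread between these libraries, which may be technical.

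Embryoid bodies in serum form mixed tissue. Mesoderm that leaves the primitive streak gives rise to the heart fields, to endothelium, to the first blood cells and to the mesothelium that lines the body cavities, while visceral and gut endoderm arise beside it. Cardiac transcription factors of the GATA, T-box and HAND families act first in these cells, and the genes of the sarcomere, of calcium release and of cell coupling follow as the myocytes mature. Primitive red cells depend on GATA1, TAL1 and KLF1 and make embryonic globins. In bulk RNA, fewer cells of a type and less RNA per cell cannot be told apart.

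Zfp512b, the gene that was targeted (mm9 chromosome 2, 181316808 to 181327508, minus strand), held 1148 and 1093 normalized reads in the WT libraries, 159 and 178 in KO8 and 189 and 215 in KO4. The KO8 libraries lay far below WT, and the log2 difference was -2.73 ± 0.12 (SE, adjusted p = 2.51e-06). The clones differed from each other by less than the threshold asks, with a log2 difference of -0.26 ± 0.13 (SE, adjusted p = 0.106). All log2 differences are on the scale of log2(normalized reads + 1), and a gene counts as called when its adjusted p in limma was under 0.05.

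The depth of the libraries, in units of 1e6 reads on genes and estimated from the base means, was 19.5 and 18.3 for WT, 19.3 and 17.7 for KO8 and 17.5 and 17.1 for KO4. Of the 7038 genes tested in KO8 against WT, 1832 (26.0%) were called, 902 higher (12.8%) and 930 lower (13.2%), and 2660 had an unadjusted p under 0.05. The median log2 difference of all tested genes was -0.003, and that of the called genes, without sign, 0.79. Without KO8 library a the counts fell to 549 higher and 611 lower. Chromosome 8 supplied 24.3% of the higher calls and 4.97% of the tested genes. It had 219 of 350 genes higher and a median of 0.53, against medians between -0.09 and 0.09 on the 19 other chromosomes, Y left out. The 23 gene lists used here hold 511 genes, of which 179 were tested. The calls in every list are to be read beside the shares of all genes tested, 12.8% higher and 13.2% lower. The minimum of 50 is set on the mean of both groups, so that a gene nearly silent in WT enters by its KO8 reads alone.

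**Figure D1:**
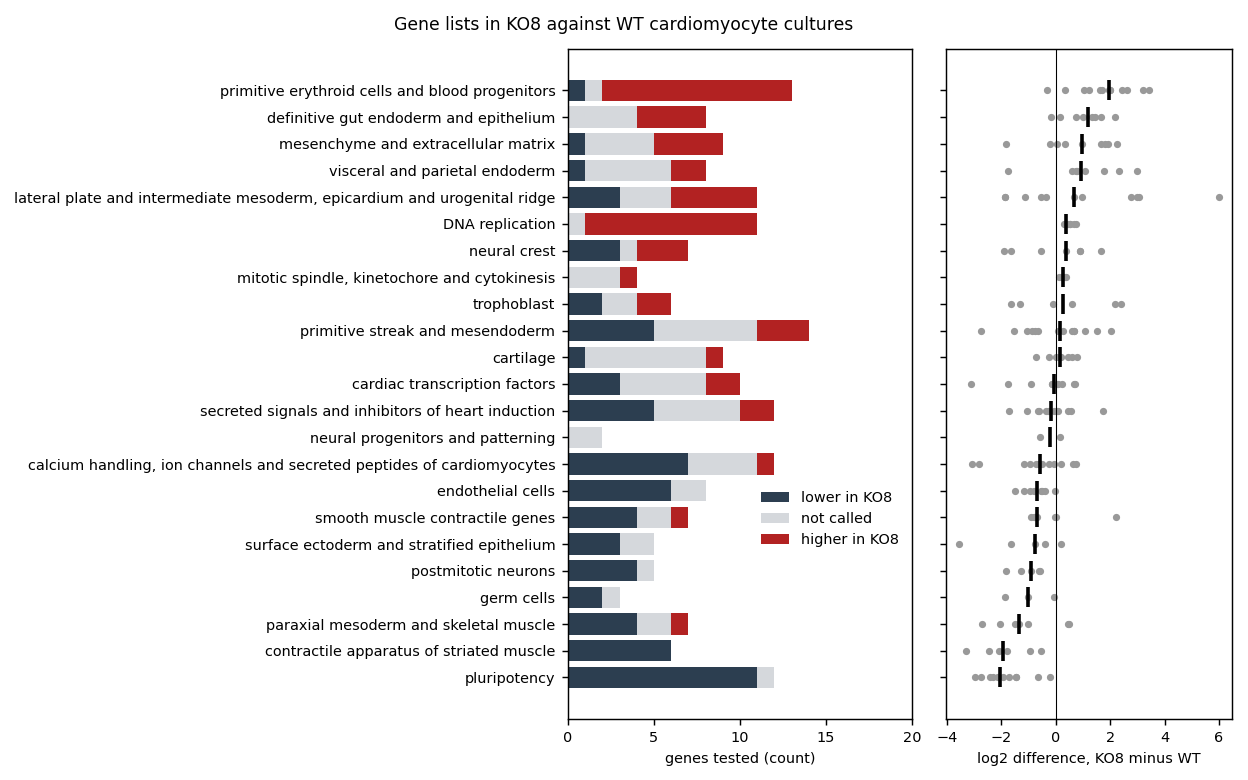
Genes tested in each list by their call in KO8 against WT (left, count of genes) and the log2 difference of each of them (right, 1 dot per gene, black mark for the list's median). Blood genes stand at the top with 11 of 13 higher, pluripotency and contractile genes at the bottom with 11 of 12 and 6 of 6 lower.

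The contractile genes that could be tested were lower but present. Of 29 listed genes of the sarcomere and its associated proteins, 4 had a base mean under 50, 19 had no reads per library and 6 were tested. All 6 were called lower (13.2% of all genes tested were lower), with a median of -1.94. The 6 are the less abundant part of the list, since the reads of an abundant gene could not be worked out. Myl2, the regulatory light chain of the ventricle on chromosome 5 of mm9 (122550960 to 122563481), held 933 and 1165 normalized reads in WT and 170.0 and 211 in KO8, with 2.1 and 0 in KO4. The KO8 values sat between WT and KO4, and the difference to WT was -2.46 ± 0.15 (SE, adjusted p = 1.87e-05). Tnni3, the troponin I of the mature heart, fell from 249 and 292 to 53.1 and 72.7 (-2.10 ± 0.22, SE, adjusted p = 0.000155). Lmod2, which lengthens thin filaments, fell from 72.7 and 122 to 4.8 and 14.8, the largest step of the list (-3.31 ± 0.53, SE, adjusted p = 0.00158). The changes of Csrp3 and Xirp1 were smaller. Csrp3, a stretch-sensing protein of the Z-disc, read 682 and 712 in WT against 372 and 341 in KO8 (-0.97 ± 0.11, SE, adjusted p = 0.000233). Xirp1, an actin-binding protein of intercalated discs, changed by -0.55 ± 0.14 (SE, adjusted p = 0.0159). Set against KO4, all 6 genes were higher in KO8, where 32.2% of all tested genes were.

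For the abundant contractile genes, the pooled means of both tables give the difference between the clones, because the WT part is common to both. The KO8 mean exceeded the KO4 mean for 18 of the 19 genes, against 2538 of all 5155 genes without reads per library. A KO4 mean cannot be negative, so the excess is also the least that the KO8 libraries held on average. It came to 9301 normalized reads for Actc1, the cardiac actin, to 8257 for Myh7 and 4220 for Myh6, the beta and alpha myosin heavy chains, and to 2991 for Tnnt2, the cardiac troponin T. The exception was Pdlim5 with an excess of -38. Whether these genes differed between KO8 and WT is not fixed by the pooled means.

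Genes of coupling, excitation and calcium release were mostly lower among those tested. Of 12 tested genes of this list, 7 were lower, 1 was higher and 4 were not called, with a median of -0.58. Of all genes tested, 13.2% were lower and 12.8% higher. Gja5, a gap junction protein of atria and conduction tissue, fell most, from 903 and 1285 normalized reads to 89.8 and 178 (-3.08 ± 0.28, SE, adjusted p = 7.76e-05). Trdn, which anchors the calcium store protein calsequestrin, went from 113 and 88.4 to 8.7 and 20.0 (-2.82 ± 0.44, SE, adjusted p = 0.00124). For Cacna1c, the pore of the L-type calcium channel, the values were 1031 and 961 in WT and 500.4 and 517 in KO8 (-0.97 ± 0.10, SE, adjusted p = 0.00012). Hrc, a calcium-binding protein of the sarcoplasmic reticulum, changed by -0.64 ± 0.10 (SE, adjusted p = 0.00168). The gene that rose was Hcn4, the pacemaker channel of nodal cells and of early myocytes, with 769.5 and 567 normalized reads in WT and 1097 and 1133 in KO8 (0.75 ± 0.13, SE, adjusted p = 0.00272). It was low in KO4, at 115 and 99.5.

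Cardiac transcription factors did not share a direction. Among the 10 tested, 3 were lower, 2 higher and 5 not called, with a median of -0.05 in KO8 against WT and of -4.48 in KO4 against WT, a comparison that uses the same WT libraries. Tbx1, a factor of the pharyngeal mesoderm and the anterior heart field, was the most reduced, with 455 and 940.0 normalized reads in WT and 83.1 and 67.4 in KO8 (-3.11 ± 0.29, SE, adjusted p = 8.75e-05). Irx4, which marks ventricular myocytes, changed by -0.91 ± 0.17 (SE, adjusted p = 0.00386), and Hopx, a homeodomain protein of differentiating myocytes, by -1.76 ± 0.26 (SE, adjusted p = 0.00108). The 2 higher genes were Tbx5 and Gata5. Tbx5, the factor of the first heart field and the atria, read 221 and 211 in WT, 381 and 329.8 in KO8 and 0 and 13.0 in KO4, so that the clones lay on opposite sides of WT. Its difference to WT was 0.71 ± 0.14 (SE, adjusted p = 0.0053), and Gata5, a partner of other GATA factors in heart and endoderm, changed by 0.66 ± 0.10 (SE, adjusted p = 0.00134). With all 6 CM libraries in 1 fit the adjusted p of Tbx5 was 0.589, that of Gata5 0.315 and that of Irx4 0.0538, and without KO8 library a that of Tbx5 was 0.0638. Isl1, the marker of second heart field progenitors, held 809.7 and 1006 normalized reads in WT and 1070.4 and 1021 in KO8 (0.21 ± 0.11, SE, adjusted p = 0.198). In KO4 it read 21.1 and 41.1. Of the 10 factors 9 were higher in KO8 than in KO4, as were 32.2% of all tested genes.

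Some abundant factors can be placed relative to WT by the pooled means alone. Since the KO4 mean is at least 0, the WT mean is at most 2 times the pooled mean of the KO4 table, which gives the least ratio of KO8 to WT. This ratio was above 1 for 7 of the 13 factors without reads per library, and for 64 of all 5155 such genes. A bound of this kind can only show a gene as higher in KO8 than in WT, never as lower. It was at least 5.09-fold for Hand1, a factor of the left ventricle, the pericardium and extraembryonic mesoderm, at least 1.77-fold for Hand2, which lies on chromosome 8, 1.71-fold for Gata6, 1.51-fold for Tbx20, 1.33-fold for Tbx3, 1.21-fold for Gata4 and 1.11-fold for Nkx2-5. These bounds carry no replicate error. For the other 6 factors, such as Mef2c and Myocd, no direction is fixed.

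**Figure D2:**
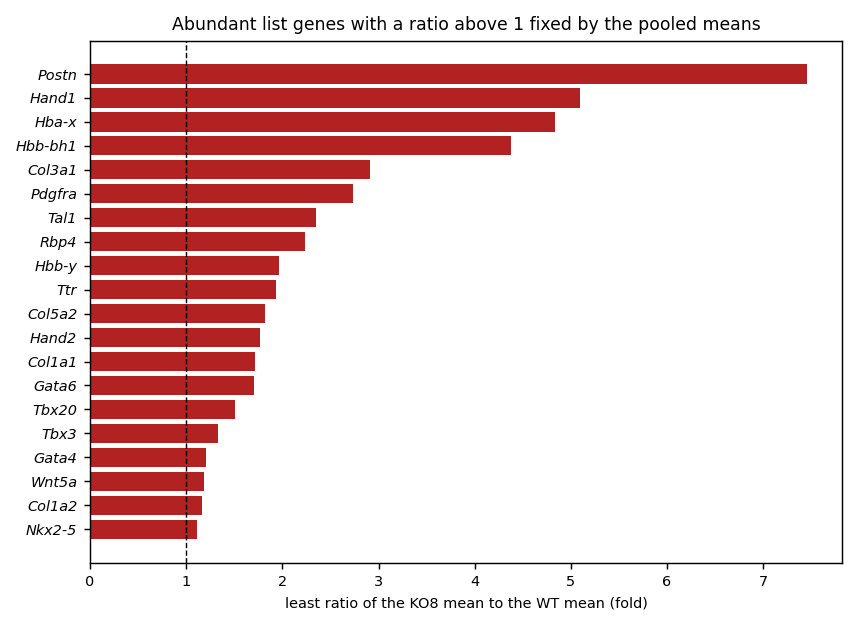
Least ratio of the KO8 mean to the WT mean (fold) for the 20 abundant list genes in which the pooled means fix a ratio above 1, marked by the dashed line, after rounding to 3 digits, which leaves out Apob at 1.0. Postn leads with 7.45, followed by Hand1 with 5.09 and the embryonic globin genes Hba-x and Hbb-bh1 with 4.83 and 4.38.

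Most tested endothelial genes were lower to a moderate degree. Of 20 listed genes, 8 were tested and 6 of them called lower (13.2% of all genes tested were), none higher, with a median of -0.68. Emcn, the mucin endomucin of venous and capillary endothelium, changed most, from 587 and 791 normalized reads in WT to 237 and 248 in KO8 (-1.49 ± 0.15, SE, adjusted p = 0.000125). Sox7, a factor of early vessel formation, went from 1034 and 1189 to 594 and 549 (-0.96 ± 0.10, SE, adjusted p = 0.000184). Esam, a junction protein, and Fli1, an ETS factor, changed by -0.81 ± 0.12 (SE, adjusted p = 0.00104) and by -0.55 ± 0.10 (SE, adjusted p = 0.00348). Etv2, the factor that starts the endothelial and blood programme, read 163 and 130.1 in WT and 132 and 155 in KO8 and was not called. All 8 tested genes were higher in KO8 than in KO4, as were 32.2% of all tested genes. The summed normalized reads of the 8 were 153 and 194 in KO4, 3046 and 2989 in KO8 and 4718 and 5525 in WT. By the pooled means, the KO8 mean was also above the KO4 mean for the 12 genes without reads per library, among them Cdh5, Kdr and Pecam1. Over all 5155 genes without reads per library, the KO8 mean was the higher for 2538. Smooth muscle genes gave 4 lower and 1 higher of 7 tested, with a median of -0.70. Cnn1, or calponin, fell from 1043 and 1214 to 643 and 639.6 (-0.81 ± 0.10, SE, adjusted p = 0.000379), while Actg2, the actin of visceral smooth muscle, rose from 51.7 and 47.8 to 221 and 248 (2.21 ± 0.21, SE, adjusted p = 9.98e-05).

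Most tested genes of primitive blood rose. Of 20 listed genes 13 were tested, and 11 of them were higher (12.8% of all tested genes were), 1 lower and 1 not called, with a median of 1.97. Their summed normalized reads were 4014 and 3538 in WT and 9890 and 9770 in KO8, against 807 and 836 in KO4. Alas2, the enzyme of the first step of heme synthesis in red cells, on chromosome X (146981918 to 147005181), rose from 390.5 and 392 to 1537 and 1561 (1.98 ± 0.09, SE, adjusted p = 2.91e-06). Nfe2, a globin regulator, and Slc4a1, the anion exchanger of red cells, changed by 1.97 ± 0.13 (SE, adjusted p = 1.87e-05) and 1.62 ± 0.12 (SE, adjusted p = 3.81e-05).

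The factors that direct red cell formation moved with these genes. Klf1, on chromosome 8 (87425827 to 87429194), read 87.1 and 40.6 in WT and 647 and 654 in KO8, which was the largest change in the list (3.43 ± 0.29, SE, adjusted p = 5.8e-05). Gata1 rose from 151 and 77.2 to 691 and 662 (2.63 ± 0.26, SE, adjusted p = 0.000116). Gfi1b, a repressor of the red cell and platelet lines, and Epor, the erythropoietin receptor, changed by 1.99 ± 0.17 (SE, adjusted p = 5.8e-05) and 1.70 ± 0.15 (SE, adjusted p = 7.78e-05). Genes outside the red cell line rose as well. They were Itga2b of megakaryocytes and early progenitors, with a log2 difference of 1.23, and Spi1 of the myeloid line, with 30.6 and 23.4 normalized reads in WT, 143 and 156 in KO8 and 0 in both KO4 libraries. Runx1, which acts where blood cells emerge from endothelium, was not called (0.35 ± 0.12, SE, adjusted p = 0.0566). Lmo2, shared by endothelium and blood, was slightly lower (-0.32 ± 0.10, SE, adjusted p = 0.0438, and 0.109, 0.187 and 0.199 without WT library b, KO8 library a and KO8 library b). Of the 13 genes 3 belong to chromosome 8, where higher calls were so frequent, among them Klf1 and Lyl1. When that chromosome was left out, 9 of the 10 remaining genes were called, Lmo2 as lower and the others as higher. The median was then 1.83. For the abundant genes the least ratio of KO8 to WT was 4.83-fold for Hba-x, 4.38-fold for Hbb-bh1 and 1.97-fold for Hbb-y, the embryonic globin genes, and 2.35-fold for Tal1.

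**Figure D3:**
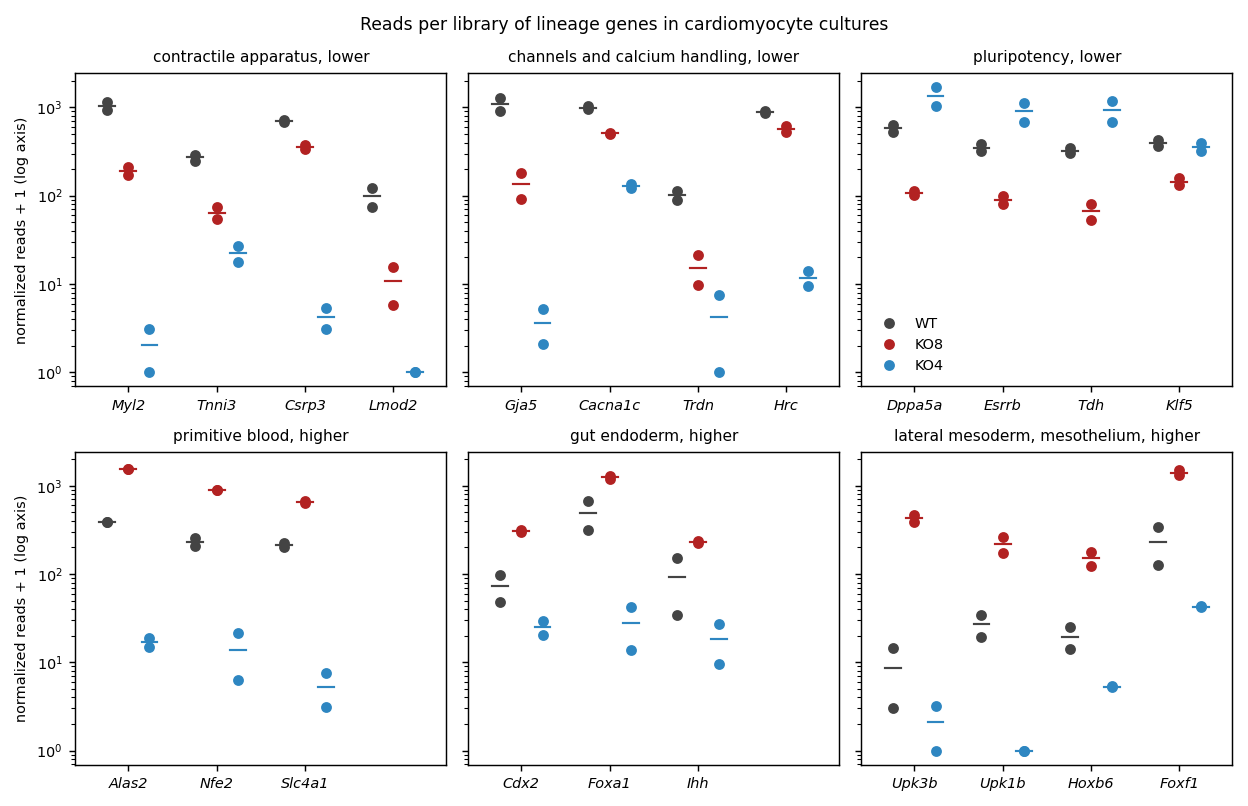
Normalized reads plus 1 (log axis) in each library for up to 4 genes with the smallest p among those called in the direction that heads each of the 6 panels, of those reported here, with WT in grey, KO8 in red and KO4 in blue, 1 dot per library and a bar at the mean. KO8 lies between WT and KO4 in the contractile panel, above both in the blood, gut endoderm and lateral mesoderm panels and below both in the pluripotency panel.

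The 250 bases before the starts of the blood genes that rose were searched for the GATA motif, written AGATAA or TGATAA, on both strands. Regulation of these genes by GATA1 was not tested. A promoter of RefSeq (GRCm38.p6) was at hand for 7 of the 11 genes that rose, and 4 of the 7 held the motif (57.1%), against 18.8% of the promoters of all 27025 genes and 11.3% of those of the tested genes. The promoters of Nfe2, Spi1 and Slc4a1 were not examined here. The promoters of Gata1, Lyl1 and Itga2b held no match. For the 4 that held the motif, the stretches around the match nearest to the start are shown 5′ to 3′ in the direction of the gene. The motif is in capitals in these stretches. They lie 86 bases before the start of Alas2 (chrX:150547301-150547366, plus strand), 80 before that of Klf1 (chr8:84901872-84901937, plus strand), 120 before that of Gfi1b (chr2:28622067-28622132, minus strand) and 54 before that of Epor (chr9:21963595-21963660, minus strand).
Alas2: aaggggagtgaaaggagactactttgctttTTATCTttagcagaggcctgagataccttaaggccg
Klf1: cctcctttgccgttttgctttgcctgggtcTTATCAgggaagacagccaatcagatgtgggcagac
Gfi1b: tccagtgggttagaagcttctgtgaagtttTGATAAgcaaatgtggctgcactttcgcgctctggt
Epor: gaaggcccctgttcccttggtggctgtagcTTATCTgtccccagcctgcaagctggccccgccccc
In Alas2, Klf1 and Epor the motif stands on the opposite strand and reads TTATCT or TTATCA here. A match is a description of the letters and does not show binding.

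Endoderm genes were higher in part, and the WT libraries differed strongly from each other in them. In the gut endoderm list 4 of 8 tested genes were higher (12.8% of all genes tested were) and none lower. The median was 1.17, and it was 1.81 without WT library a and 0.43 without WT library b. Cdx2, the factor of the hindgut and of trophoblast, read 97.6 and 46.7 in WT and 318 and 301 in KO8 (2.18 ± 0.30, SE, adjusted p = 0.000658). Foxa1, a pioneer factor of endoderm, read 676 and 312 in WT against 1273 and 1204 (1.43 ± 0.27, SE, adjusted p = 0.00388). Ihh, a hedgehog ligand, read 150.3 and 33.5 in WT and 223 and 234 in KO8 (1.67 ± 0.52, SE, adjusted p = 0.0422), and with all 6 CM libraries in 1 fit its adjusted p was 0.071. Foxa2 and Foxa3 changed by 0.74 ± 0.26 (SE, adjusted p = 0.0668) and by 0.99 ± 0.35 (SE, adjusted p = 0.0665).

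For visceral and parietal endoderm, 2 of 8 tested genes were higher and 1 lower, against 12.8% and 13.2% of all genes tested. The median was 0.93, and it was 1.90 without WT library a and 0.12 without WT library b. Fgb, the fibrinogen beta chain, read 144 and 31.5 in WT, 656 and 452 in KO8 and 13.7 and 19.5 in KO4 (KO8 minus WT 2.99 ± 0.53, SE, adjusted p = 0.0028). Apom, an apolipoprotein, changed by 2.31 ± 0.53 (SE, adjusted p = 0.0103). Other genes of yolk sac endoderm followed WT library a. Apoa1 read 601 in WT library a and 140.2 in library b, against 621 and 618 in KO8 (1.09 ± 0.49, SE, adjusted p = 0.137), and Hnf4a read 555 and 81.3 against 799.9 and 679. Against 3 calls with all libraries, 8 genes were called without WT library a, 4 without WT library b and 6 without either KO8 library. The gene that fell was Thbd, or thrombomodulin, of parietal endoderm and of endothelium, from 957 and 1099.6 to 285 and 315 (-1.77 ± 0.12, SE, adjusted p = 1.87e-05). From the pooled means the ratio of KO8 to WT was at least 2.24-fold for Rbp4, the retinol carrier, and 1.93-fold for Ttr, or transthyretin, both made in visceral endoderm, and 2.73-fold for Pdgfra, a receptor of primitive endoderm and of mesoderm.

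Genes of lateral mesoderm went both ways. Of 11 tested genes 5 were higher and 3 lower, with a median of 0.66 (0.15 without the chromosome 8 gene Foxf1). Without WT library b the median was -0.03, without KO8 library b 0.44 and without KO8 library a 0.88. Upk3b, a uroplakin that marks mesothelium, on chromosome 5 (136514366 to 136521173), showed the largest change of all genes tested. It held 13.4 and 2.0 normalized reads in WT, 465 and 389.9 in KO8 and 0 and 2.2 in KO4, and the log2 difference to WT was 6.01 ± 0.59 (SE, adjusted p = 0.000119). Upk1b, a uroplakin partner, rose from 33.5 and 18.3 to 262 and 173 (3.05 ± 0.34, SE, adjusted p = 0.000223). Foxf1, the factor of splanchnic mesoderm, read 337 and 127 in WT and 1491 and 1324 in KO8 (2.76 ± 0.34, SE, adjusted p = 0.00036), and the homeobox gene Hoxb6 changed by 2.99 ± 0.37 (SE, adjusted p = 0.000357). The fifth higher gene, named after its values were seen, was Alx4, a factor of limb and craniofacial mesenchyme, with 108 and 143 in WT and 236 and 255 in KO8 (0.97 ± 0.19, SE, adjusted p = 0.00465). In contrast, Prrx1, another factor of that mesenchyme, fell from 485 and 661 to 137 and 172 (-1.88 ± 0.18, SE, adjusted p = 0.000105). Twist1 of the same mesenchyme and Osr1 of intermediate mesoderm changed by -1.15 ± 0.13 (SE, adjusted p = 0.000247) and by -1.86 ± 0.28 (SE, adjusted p = 0.00114). Tcf21, a marker of the epicardium, read 228 and 266 in WT and 145 and 192 in KO8 (adjusted p = 0.0524). All 11 genes were higher in KO8 than in KO4, as were 32.2% of all tested genes.

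Matrix genes were higher in part. Among 9 tested genes 4 rose, 1 fell and 4 were not called, while 12.8% of all genes tested rose and 13.2% fell. The median was 0.97, and it was 0.37 without WT library a and 0.64 without KO8 library a. Lum, the collagen-binding proteoglycan lumican, rose from 421 and 221 normalized reads to 1582 and 1304 (2.23 ± 0.24, SE, adjusted p = 0.000182), and Col6a3, a chain of collagen VI, from 162 and 119.9 to 521 and 456 (1.80 ± 0.17, SE, adjusted p = 0.000106). Dcn, or decorin, and Eln, or elastin, changed by 1.91 ± 0.26 (SE, adjusted p = 0.000588) and 1.67 ± 0.29 (SE, adjusted p = 0.00264). The proteoglycan Bgn went the other way, from 377 and 617 to 157 and 114 (-1.85 ± 0.24, SE, adjusted p = 0.000472). Of the 14 abundant genes, 5 had a least ratio of KO8 to WT above 1, as had 64 of all 5155 genes without reads per library. This bound cannot show a loss. They were Postn, or periostin, of cushion and fibroblast tissue with 7.45-fold, Col3a1 with 2.91-fold, Col5a2 with 1.82-fold, Col1a1 with 1.72-fold and Col1a2 with 1.16-fold.

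Most tested genes of paraxial mesoderm and skeletal muscle were reduced. Of 7 tested genes 4 were lower and 1 higher, against 13.2% and 12.8% of all genes tested. The median was -1.34, and 14 listed genes had a base mean under 50. Pax1, a factor of the sclerotome and the pharyngeal pouches, on chromosome 2 (147187661 to 147219031), read 1079 and 1857 in WT, 299 and 386 in KO8 and 0 in both KO4 libraries. Its difference to WT was -2.05 ± 0.22 (SE, adjusted p = 0.000164). Uncx of the somites and Acta1, the skeletal actin that early myocytes also use, changed by -2.71 ± 0.48 (SE, adjusted p = 0.00281) and by -1.50 ± 0.10 (SE, adjusted p = 2.52e-05). Pax9, which shares the expression sites of Pax1, read 294 and 322 in WT and 414 and 451 in KO8 (0.49 ± 0.13, SE, adjusted p = 0.0178, and 0.0531 and 0.148 without KO8 library a or b and 0.466 with all 6 CM libraries in 1 fit). In the cartilage list 1 of 9 genes was lower, 1 higher and 7 not called, with a median of 0.14. This is close to the shares of all genes tested, 13.2% lower and 12.8% higher. Sox9, the master factor of chondrocytes, fell from 488 and 681 to 325 and 380.4 (-0.71 ± 0.16, SE, adjusted p = 0.0103).

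Nearly all tested genes of pluripotency were lower than in WT. Of 26 listed genes 12 were tested, 10 had no reads per library and 4 had a base mean under 50. Of the 12, 11 were called lower and none higher, with a median of -2.04. Dppa5a, a gene of naive stem cells on chromosome 9 (78214859 to 78215984), fell from 524 and 636 normalized reads to 112 and 100.1, while KO4 held 1682 and 1024. KO8 thus lay below WT and KO4 above it, and the difference of KO8 to WT was -2.44 ± 0.16 (SE, adjusted p = 1.87e-05). Esrrb, a nuclear receptor of the naive state, and Tdh, a threonine-degrading enzyme of stem cells, changed by -1.95 ± 0.19 (SE, adjusted p = 0.000105) and by -2.31 ± 0.23 (SE, adjusted p = 0.000125). Nanog read 368 and 532 in WT, 143 and 181 in KO8 and 1453 and 1245 in KO4 (KO8 minus WT -1.45 ± 0.20, SE, adjusted p = 0.000624). Tfcp2l1 was the gene not called (-0.20 ± 0.28, SE, adjusted p = 0.653). Against KO4, 10 of the 12 genes were lower in KO8, where 22.2% of all tested genes were, and Klf4 was higher. For the abundant genes Pou5f1 and Sox2 the KO8 mean was 2645 and 6323 normalized reads below the KO4 mean, and their direction against WT is not fixed. Tbx3, which the cardiac factor list also holds, was the abundant gene with a least ratio of KO8 to WT above 1 (1.33-fold). Among 3 tested germ cell genes 2 were lower, with a median of -1.02, namely Rnf17 (-1.89 ± 0.33, SE, adjusted p = 0.00266) and Mov10l1 (-1.02 ± 0.27, SE, adjusted p = 0.02, 0.0541 with all 6 CM libraries in 1 fit and 0.152 without KO8 library b, where 1 of the 3 was called).

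Genes of the primitive streak and mesendoderm went both ways. Of 14 tested genes 3 were higher, 5 lower and 6 not called, with a median of 0.17 (-0.02 without WT library b). Of all genes tested, 12.8% were higher and 13.2% lower. The lower genes were Fgf4, Lefty2, Nodal and Cer1 of FGF and Nodal signalling and Sp5, a Wnt target (adjusted p = 0.00371, and 0.078 with all 6 CM libraries in 1 fit). Of the same pathways Fgf8 (0.09 ± 0.13, SE, adjusted p = 0.667) and Lefty1 (-0.89 ± 0.31, SE, adjusted p = 0.0628) were not called. Lefty2, a Nodal inhibitor, fell from 561 and 592 to 188 and 207 (-1.54 ± 0.13, SE, adjusted p = 5.45e-05), and Fgf4 from 117 and 174 to 23.2 and 17.9 (-2.75 ± 0.32, SE, adjusted p = 0.000298). Cer1, an inhibitor of Nodal, BMP and Wnt, changed by -1.05 ± 0.33 (SE, adjusted p = 0.0422), a call that was lost without WT library a and without KO8 library a (adjusted p = 0.0562 and 0.0511). The higher genes were the homeobox genes Evx1, Mixl1 and Gsc. Evx1 of the posterior streak rose from 90.9 and 52.8 to 286 and 287 (2.03 ± 0.25, SE, adjusted p = 0.000391). Mixl1 and Gsc changed by 1.50 ± 0.41 (SE, adjusted p = 0.0238) and 1.06 ± 0.29 (SE, adjusted p = 0.0248). Without KO8 library b the adjusted p of Mixl1 was 0.0556, and that of Gsc was 0.0698 and 0.279 without KO8 library a or b. T, or brachyury, read 105 and 114 in WT and 127 and 134 in KO8 and was not called. Eomes read 960.0 and 417 in WT and 840.5 and 1089.6 in KO8, with overlapping groups.

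Secreted signals of heart induction gave 2 higher and 5 lower of 12 tested genes, with a median of -0.16. The shares of all genes tested were 12.8% higher and 13.2% lower. Sfrp5, a Wnt inhibitor of the foregut and the inflow tract, rose from 350.3 and 196 to 868 and 888 (1.74 ± 0.22, SE, adjusted p = 0.000406). Wnt2, a ligand of the early heart and the lung field, changed by 0.56 ± 0.12 (SE, adjusted p = 0.00856, and 0.101 without KO8 library a). Inhba, the activin A subunit, fell from 125 and 155 to 39.6 and 44.3 (-1.71 ± 0.26, SE, adjusted p = 0.001), and Nog, the BMP inhibitor noggin, and Dkk1, a Wnt inhibitor, changed by -0.62 ± 0.15 (SE, adjusted p = 0.0156) and by -0.35 ± 0.10 (SE, adjusted p = 0.0311). The call of Nog was lost without KO8 library b (adjusted p = 0.0528) and that of Dkk1 without either KO8 library (adjusted p = 0.259 and 0.0971). In all, 4 genes of the list were called without KO8 library a.

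Many neural genes had a low base mean in the comparison of KO8 with WT, but not all. Among the progenitor genes without reads per library it was 3144 for Nes, 1386 for Irx3 and 1274 for Sox2. For Sox1 and Pax6 it was 84.9 and 78.2. Both lacked reads per library because of their base means in the comparison of KO4 with WT, 1807 and 1467 on the same scale. Of 25 listed genes of neural progenitors, 12 had a base mean under 50 and 2 were tested, Sox21 and Nkx6-1. In limma 0 of the 2 were called, with precision weights (voom) also 0, and 1 had an unadjusted p under 0.05, while 1 was called without WT library b. Sox21, a factor of neural progenitors, read 166 and 125 in WT, 109 and 84.3 in KO8 and 806 and 731 in KO4. For Sox1 and Pax6, early neural factors, the pooled means allow at most 169.7 and 156.4 normalized reads on average in WT or KO8, while the KO4 means exceeded the KO8 means by 3445 and 2777. Of 24 listed neuronal genes, 17 had a base mean under 50. Among the 5 tested, 4 were called lower (13.2% of all genes tested were), with a median of -0.92. Ina, the neurofilament alpha-internexin, fell from 189.5 and 213 to 50.2 and 63.2 and stood at 756 and 599 in KO4 (KO8 minus WT -1.82 ± 0.22, SE, adjusted p = 0.000363). Nefl, a neurofilament, and Gap43, a growth cone protein, changed by -1.29 ± 0.19 (SE, adjusted p = 0.000923) and by -0.60 ± 0.10 (SE, adjusted p = 0.0018), and Map2 of dendrites by -0.92 ± 0.27 (SE, adjusted p = 0.0317, and 0.241 without KO8 library a). All 5 genes were lower in KO8 than in KO4, as were 22.2% of all tested genes.

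In the neural crest list, 3 of 7 tested genes were higher and 3 lower (12.8% and 13.2% of all genes tested), with a median of 0.37. Msx1, a BMP target of crest and mesoderm, rose from 141 and 129 to 455 and 400.4 (1.66 ± 0.15, SE, adjusted p = 7.81e-05), and Msx2 and Snai2 changed by 0.88 ± 0.09 (SE, adjusted p = 0.00013) and 0.88 ± 0.13 (SE, adjusted p = 0.000941). Foxd3, which marks premigratory crest and also stem cells, fell from 98.6 and 135 to 29.9 and 43.2 (-1.65 ± 0.31, SE, adjusted p = 0.00346), and Ngfr, a neurotrophin receptor, from 354 and 283 to 81.2 and 88.5 (-1.89 ± 0.19, SE, adjusted p = 0.00012). Of 5 tested genes of surface ectoderm 3 were lower, with a median of -0.76, led by Wnt6, with 266 and 262 in WT and 12.6 and 35.8 in KO8 (-3.57 ± 0.41, SE, adjusted p = 0.000255). Without WT library b all 5 were called. In the trophoblast list, 2 of 6 tested genes were higher, 2 lower and 2 not called, with a median of 0.25, which lay between -0.02 without WT library b and 0.53 without WT library a. Plac1, a placental membrane protein, changed by 2.39 ± 0.32 (SE, adjusted p = 0.000603) and Krt7, a keratin of simple epithelia, by -1.32 ± 0.12 (SE, adjusted p = 8.69e-05).

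Tested DNA replication genes were slightly higher, with log2 differences from 0.30 to 0.76. Of 47 listed genes 36 had no reads per library and 11 were tested. Of these, 10 were higher (12.8% of all genes tested were), with a median of 0.39. Gins2, a part of the replicative helicase, read 623 and 773 in WT and 1171 and 1175 in KO8 (0.76 ± 0.11, SE, adjusted p = 0.00095), and Gins3 of the same complex changed by 0.68 ± 0.12 (SE, adjusted p = 0.00331). Both lie on chromosome 8. Tk1 and Pole2, on other chromosomes, changed by 0.51 ± 0.10 (SE, adjusted p = 0.00506) and 0.51 ± 0.11 (SE, adjusted p = 0.00935, and 0.101 for Pole2 without KO8 library a). Without the chromosome 8 genes 7 were called, and without KO8 library a or b 4 and 5. Among 4 tested genes of mitosis 1 was higher, Kif18a (0.36 ± 0.10, SE, adjusted p = 0.029, and 0.0609 and 0.277 without KO8 library a or b), with a median of 0.26 (0.11 without WT library a) and 50 genes without reads per library. Without WT library b 3 of the 4 were called. All the abundant replication genes but 1, and 43 of the 50 abundant mitosis genes, had a lower mean in KO8 than in KO4. The same was true of 2615 of all 5155 genes without reads per library.

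**Figure D4:**
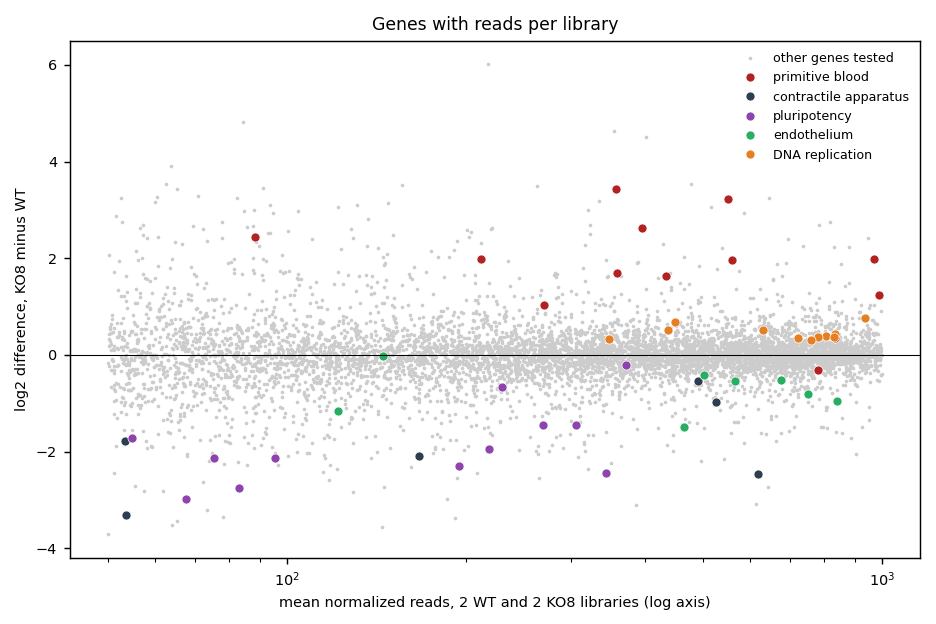
Log2 difference of KO8 minus WT against the mean normalized reads of the 4 libraries (log axis) for the 7038 genes tested, with 5 lists in colour. Blood genes reach 3.43 and pluripotency genes -2.98, whereas DNA replication genes stay between 0.30 and 0.76.

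Over all genes tested, the 10 largest gains were led by Upk3b and included Fmod, Cpne7, Bnc1, Slc14a1, Pyy, Kif12, Ikzf1 and Hoxc8. Bnc1, a zinc finger protein of mesothelium and stratified epithelium, read 57.4 and 18.3 in WT and 862 and 666 in KO8 (4.50 ± 0.41, SE, adjusted p = 8.05e-05). Fmod, the small matrix proteoglycan fibromodulin, went from 5.7 and 4.1 to 176 and 152 (4.81 ± 0.39, SE, adjusted p = 5.23e-05). Ikzf1, a factor of blood cells, rose from 51.7 and 33.5 to 516 and 450.0 (3.50 ± 0.23, SE, adjusted p = 1.87e-05), and Slc14a1, the urea transporter of red cells and kidney, by 3.91 ± 0.42 (SE, adjusted p = 0.000182). Pyy, a gut hormone gene, reached 953 and 799.8 from 107 and 50.8 (3.54 ± 0.29, SE, adjusted p = 5.08e-05), and Hoxc8 164 and 163 from 30.6 and 6.1. In each of the genes named here both KO8 libraries lay above both WT libraries, which their choice by size of gain nearly fixes. Over all 7038 genes tested, the groups did not overlap, in either direction, for 4524. Cpne7 lies on chromosome 8 and was higher in KO4 as well, at 85.5 and 68.2 against 38.3 and 18.3 in WT and 648 and 716 in KO8.

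The 10 largest losses were those of Calcoco2, Wnt6, Trpc6, Col25a1, Foxd1, Msc, Lmod2, Fibcd1, Tbx1 and Gja5, with log2 differences between -3.71 and -3.08. Calcoco2, an autophagy receptor, read 75.6 and 112 in WT, 8.7 and 4.2 in KO8 and 226 and 110.4 in KO4. The factor Msc of pharyngeal muscle progenitors read 112 and 174 in WT and 9.7 and 16.9 in KO8, and Foxd1, a forkhead factor of kidney stroma and head mesenchyme, 257 and 440.0 against 47.3 and 21.1. Foxd1, Trpc6, Col25a1, Fibcd1 and Wnt6 were low in KO4 too, and the difference between the clones did not pass the threshold (adjusted p = 0.235, 0.967, 0.483, 0.898 and 0.523, with log2 differences of -0.56 ± 0.38, 0.03 ± 0.53, -0.41 ± 0.47, 0.07 ± 0.44 and 0.35 ± 0.44, SE).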

How the data were processed

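RNA of CM cultures was compared between 2 KO8 and 2 WT libraries, and KO4 libraries served for comparison. According to the paper's methods and the labels, the authors trimmed the reads (Trim Galore 0.6.7), aligned them to mm9 (HISAT2 2.2), assigned them to genes (featureCounts) and contrasted every clone with its WT libraries in DESeq2 1.46.0. Settings for strand and the annotation release are not given in the sources used here. The deposited base mean is a signal that the authors computed as the mean over 4 libraries of counts divided by size factors. The tables' other columns hold the authors' log2 fold changes, errors and p-values and were not used. The tables of other stages were not used either.

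A base mean is printed with 10 significant digits and is a sum of whole reads times 4 fixed weights. Genes with 1 read in 1 library show these weights, and 2 of them recur for the same genes in both CM tables, which share the WT libraries (56 of 90 and 75 of 113 genes). The 6 whole numbers behind the 2 base means of a gene were then searched exhaustively. For 6241 genes a single set of reads remained, for 797 only 1 set had replicates within about 2-fold of each other, and 49 were left out. On simulated reads 856 of 868 genes were given reads, and 100% of these were right. The simulated replicates were mostly alike, so this check does not cover a choice among sets for genes whose true replicates differ widely. Choosing the set with alike replicates also favours a small spread in the test of those 797 genes. The reads resolved hold 14.6% of the summed base mean, and the range of base means solved ends at 1000 in both CM tables. Genes abundant in KO4 alone, among them neural and pluripotency genes, were therefore not tested, also not between the clones. Reads were scaled by the size factors as deposited, and KO4 values were brought to the scale of the KO8 table by the WT libraries, whose 2 ratios differ by 0.49%.

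Differences were tested with limma 3.58.1 (R 4.3.3; linear models with a mean-variance trend) on log2(normalized reads + 1), with Benjamini-Hochberg adjustment over all 7038 genes and a threshold of 0.05. KO8 was compared with KO4 in a fit of all 6 libraries. On simulated data for KO8 against WT over 7038 genes, limma called 88% of 100 genes given a log2 change of 1. It called 100% of 100 given a change of 2, with 2 false calls. Every simulated gene had the same dispersion of 0.02, which was not estimated from these data. In some genes the WT libraries differed far more, and these figures do not cover them. Lists are described by counts and medians, without a set test. Alternatives were another pseudocount, minimum, scaling, model, gene set or set of libraries.

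The members and the 23 lists were chosen with earlier results of these data known. Named genes are Zfp512b, up to 4 called genes per list and direction with the smallest p, the 10 largest changes in each direction and the 3 genes listed first in each list. A few genes that the rule names are not reported here. Gata1, Klf1, Gfi1b, Epor, Itga2b, Spi1, Runx1, Isl1, Xirp1, Hnf4a, Tcf21, Etv2, Sox21, Nkx6-1, Nodal, Tfcp2l1, Klf4 and Lyl1 were named after their values were seen, as were the genes given by pooled means. Places are from GENCODE M1 (mm9), by symbol for 6206 genes and by synonym for 730. Python 3.11.15, numpy 2.4.6, pandas 2.3.3 and matplotlib 3.10.9 were used.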

Additional observations from a re-analysis of the deposited data

Results flagged for a closer look

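Of the genes named by rule and reported here, 38 were called on opposite sides of WT in KO8 and in KO4. All of them also passed the threshold between the clones in the limma fit of all 6 CM libraries. That result nearly follows from choosing genes on opposite sides of WT and is no separate evidence. With all 6 CM libraries in 1 fit the call of KO8 against WT was lost for Gata5, Tbx5, Pax9, Ihh and Col9a3 (adjusted p = 0.315, 0.589, 0.466, 0.071 and 0.053), and without KO8 library a that of Col9a3 was lost as well (adjusted p = 0.107). Both clones are set against the same WT libraries. The values given are log2 differences of KO8 minus KO4. Their size depends on the added 1 where KO4 held few reads, as with 12 in all for Gata5, 12 for Tbx5 and 8 for Slc4a1. Above WT in KO8 and below it in KO4 were the cardiac genes Gata5 (7.02), Tbx5 (6.57) and Hcn4 (3.37), the smooth muscle actin Actg2 (3.83) and the signals Sfrp5 (5.44) and Wnt2 (5.31). The blood genes Alas2 (6.52), Nfe2 (6.26) and Slc4a1 (7.09) did the same, as did the endoderm genes Fgb (4.97), Apom (4.09), Cdx2 (3.66), Foxa1 (5.69) and Ihh (3.85). So did Snai2 (4.15), Hoxb6 (4.82), Foxf1 (5.04), Col6a3 (4.99), Lum (5.59), Dcn (3.10) and Col9a3 (2.27).

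The other 4 genes above WT in KO8 and below it in KO4 had at most 3 reads in the KO4 libraries together, so the mean normalized reads in KO8 are given in place of a difference: Pax9 433, Upk1b 217, Pyy 876 and Hoxc8 164.

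Below WT in KO8 and above it in KO4 were the neuronal genes Ina (-3.55), Nefl (-2.42), Gap43 (-0.99) and Map2 (-2.62), and Foxd3 (-2.38), Tfap2c (-3.26), Lefty2 (-2.09), Fgf4 (-3.75) and Nog (-1.88). The pluripotency genes Dppa5a (-3.62), Esrrb (-3.29), Tdh (-3.79) and Nanog (-3.05) belonged to the same group.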

How the results depend on the processing

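No paired analysis was possible because the recovered libraries carry no replicate numbers. With 1 library left out, the lone library of its group being assumed to vary like the other group, the 902 higher genes became 549 to 1247 and the 930 lower genes 611 to 1176. With an absolute log2 difference of at least 1 as well, they were 320 and 339. Under the other settings the counts stayed within 1.5 times.

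Called genes per list moved by more under some settings. With all 6 CM libraries in 1 fit they were 2 for cardiac factors, 2 for gut endoderm, 1 for neural progenitors, 1 for cartilage and 1 for germ cells. With a base mean of at least 1, where more genes enter, they were 1 for neural progenitors, 8 for skeletal muscle, 1 for cartilage, 5 for mesendoderm, 4 for germ cells, 4 for signals and 0 for mitosis. Where only 1 set of reads was possible, a choice made after seeing the data that leaves fewer genes, they were 5 for channels, 3 for skeletal muscle, 0 for mitosis and 3 for DNA replication. With precision weights (voom) visceral endoderm had 5.

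With 1 library left out, the called genes ranged from 4 to 8 for visceral endoderm, 0 to 1 for neural progenitors, 3 to 5 for surface ectoderm, 1 to 3 for cartilage, 1 to 2 for germ cells, 4 to 7 for signals, 0 to 3 for mitosis and 4 to 11 for DNA replication. Of the uncalled genes Sox6 ranged from -0.13 to 0.122 and Eomes from -0.004 to 1.198 in log2 difference. The 109 named genes that were called kept their direction under every setting in which they were tested. When the minimum base mean was 1, the calls of Lmo2, Ihh, Map2, Col9a3, Mixl1, Cer1, Dkk1 and Kif18a were lost, and with precision weights that of Cer1. List medians near 0 also moved with 1 library left out, from 0.06 to 0.29 for cartilage. The cause of these moves was not tested. Genes with a base mean of 1000 or more in either CM table have no error.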

Other observations

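Among the abundant genes outside the lists, the pooled means fix a ratio of KO8 to WT above 1 for several regulators and receptors. The least ratio was 3.35-fold for Apela, a peptide ligand of the apelin receptor, and 1.81-fold for Aplnr, that receptor. It was 3.20-fold for Nrp1, a co-receptor of VEGF and semaphorins, 2.93-fold for Cpm, a carboxypeptidase, 2.87-fold for Prdm6, a factor of smooth muscle, 2.64-fold for Plek of blood cells and 2.04-fold for Zfpm1, a partner of GATA1. In all, such a ratio was found for 64 of the 5155 genes without reads per library. Apela, Nrp1 and Zfpm1 lie on chromosome 8, whose genes were higher as a whole.

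The 3 tested genes of the Y chromosome were all called higher in KO8. Kdm5d held 27.8 and 25.4 normalized reads in WT, 249 and 221 in KO8 and 91.9 and 105 in KO4 (log2 difference of KO8 to WT 3.10, adjusted p = 4.48e-05 in limma). Eif2s3y and Uty differed by 0.92 and 0.39 on the same scale.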
